A study of Saccharomyces cerevisiae with 39 samples.

Results

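The genes that turn sulfate into methionine and S-adenosylmethionine were followed across 13 groups of budding yeast (Saccharomyces cerevisiae) in which an RNA exosome gene was altered or wild type. They were taken by locus from the deposited counts as 10 of 8898 features: MET3 (YJR010W), MET14 (YKL001C), MET16 (YPR167C), MET5 (YJR137C), MET10 (YFR030W), MET2 (YNL277W), MET17 (YLR303W, also called MET15), MET6 (YER091C), SAM1 (YLR180W) and SAM2 (YDR502C). RNA was sequenced from 39 cultures, 3 per group, which the design text calls biological triplicates. In every strain the chromosomal exosome gene was deleted, and a low-copy LEU2 plasmid (pRS315) supplied a mutant or the wild-type gene or, in rrp6Δ, no exosome gene. Cells grew for 5 h at 37 °C in 10 mL of minimal glucose medium without leucine. The labels used here do not say whether methionine was supplied.

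Every strain carried ura3Δ0, leu2Δ0 and his3Δ1. The RRP6 family, rrp6Δ and its RRP6 control, was MATa met15Δ0 rrp6Δ::kanMX4, so MET17 was deleted in the mutant and in its control alike. The RRP4 family, rrp4-G226D and its RRP4 control, was MATα lys2Δ0 rrp4Δ::NEO. The RRP40 family, rrp40-W195R, rrp40-S87A and their RRP40 control, was MATa rrp40Δ::NEO. The RRP46 family, rrp46-L191H, rrp46-L127T, rrp46-Q86I and their RRP46 control, was MATα lys2Δ0 rrp46Δ::kanMX4. The RRP45 family, rrp45-I15P and its RRP45 control, was MATα rrp45Δ::NEO. The 7 missense alleles and rrp6Δ were each set against the wild-type control of the same family. The series title describes the alleles as models of disease-linked mutations of the RNA exosome, a nuclease complex that trims or destroys RNA from the 3′ side.

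As background, yeast takes up sulfate and activates it in a pair of ATP-dependent steps, by the ATP sulfurylase Met3 and the adenylylsulfate kinase Met14. Met16 reduces the activated sulfate to sulfite, and the sulfite reductase formed by Met5 and Met10 reduces sulfite to sulfide. Met2 acetylates homoserine, Met17 joins sulfide to the product to make homocysteine, Met6 methylates homocysteine to methionine, and Sam1 and Sam2 turn methionine into S-adenosylmethionine (AdoMet), the cell's main methyl donor. Many of these genes are activated by Met4, which has no DNA-binding activity of its own and is brought to promoters by Cbf1, Met31 and Met32. The ubiquitin ligase subunit Met30 restrains Met4 when sulfur is plentiful. Strains without MET17 are classically grown with methionine or another organic sulfur source.

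Per RefSeq's R64 annotation the coding sequences lie, each in 1 piece without an intron, at chrX:456239-457774 (MET3), chrXI:438777-439385 (MET14), chrXVI:876847-877632 (MET16), chrX:678957-683285 (MET5), chrVI:213312-216419 (MET10), chrXIV:117349-118809 (MET2), chrXII:732542-733876 (MET17), chrV:339864-342167 (MET6), chrXII:515262-516410 (SAM1) and chrIV:1453310-1454464 (SAM2). Stretches of 8 of the promoters are shown to place matches to the motifs of the pathway's activators beside the genes. The windows are 60 bases from RefSeq's R64 genome, 5′ to 3′ on the coding strand, upstream of the start codon, with Cbf1 (CACGTG) and Met31/Met32 (CTGTGG on either strand) motif matches in capitals. In order they are chrX:455835-455894 (plus strand), chrXI:439581-439640 (minus), chrXVI:877778-877837 (minus), chrVI:213054-213113 (plus), chrXII:732215-732274 (plus), chrV:342439-342498 (minus), chrXII:514961-515020 (plus) and chrIV:1454755-1454814 (minus).
MET3: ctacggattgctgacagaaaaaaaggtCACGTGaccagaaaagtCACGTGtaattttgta
MET14: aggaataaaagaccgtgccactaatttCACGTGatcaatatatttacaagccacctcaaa
MET16: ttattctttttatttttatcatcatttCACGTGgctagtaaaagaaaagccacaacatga
MET10: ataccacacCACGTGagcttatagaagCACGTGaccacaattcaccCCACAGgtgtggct
MET17: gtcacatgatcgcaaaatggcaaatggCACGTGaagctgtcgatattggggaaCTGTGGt
MET6: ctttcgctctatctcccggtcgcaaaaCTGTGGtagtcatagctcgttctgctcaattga
SAM1: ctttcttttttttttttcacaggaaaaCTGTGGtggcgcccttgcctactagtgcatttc
SAM2: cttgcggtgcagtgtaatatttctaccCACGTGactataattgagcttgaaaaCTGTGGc

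Within 500 bases before the start codon and on both strands, CACGTG occurred in 9 of the 10 genes, all but SAM1, and in 374 of 6000 yeast promoters (6.23%). CTGTGG occurred in 6 of the 10 genes, namely MET3, MET10, MET17, MET6, SAM1 and SAM2, and in 790 of the 6000 promoters (13.2%). TGACTC, the core of the motif of Gcn4, the activator of amino acid synthesis genes, occurred in MET16, MET5 and MET6 and in 759 of the 6000 promoters (12.7%). MET3, MET5 and MET10 each held a pair of CACGTG matches in that stretch. The windows printed do not hold every match: MET3 also had a CTGTGG match 253 bases before the start codon, and MET6 had a CACGTG match 495 bases before it. Both motifs were thus present in MET3, MET10, MET17, MET6 and SAM2. A match describes the letters in these windows and is not a measurement of binding.

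Libraries held 17244127 to 53642418 counts. Levels are given as CPM (counts scaled to a shared library total) after scaling of the 39 libraries by TMM factors, which set libraries level on the bulk of their features, and differences as log2 fold changes with their standard errors (SE). A feature was called changed at an adjusted p under 0.05 in edgeR's quasi-likelihood test, with Benjamini-Hochberg adjustment over all features of the comparison, and every p below comes from that test unless DESeq2 is named. Each SE was worked back from that test, as the absolute log2 fold change divided by the square root of the F statistic. The deleted genes followed the genotypes: RRP6 averaged 3.37 CPM in rrp6Δ and 635 CPM in RRP6, and LYS2 stayed at or below 0.0487 CPM as a group mean in the RRP4 and RRP46 families against 290.1 to 417.5 CPM elsewhere. STE2, the pheromone receptor of MATa cells, had group means of 196.1 to 582.2 CPM in the RRP6 and RRP40 families and 7.38 to 14.8 CPM in the others. TMM factors were 1.65 to 1.67 in rrp6Δ, 1.217 to 1.254 in rrp4-G226D, 1.05 to 1.08 in rrp40-W195R and 0.844 to 1.11 in the 15 control libraries. With library totals in their place the median over all features was 0.63 for rrp6Δ (0.0276 with TMM factors), 0.351 for rrp4-G226D (0.0194), 0.356 for rrp40-W195R (0.0243) and 0.168 for rrp46-L191H (0.000642), so a direction below is read against the bulk of features. In bulk RNA, a change in the share of cells and a change in RNA per cell cannot be told apart.

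**Figure D1:**
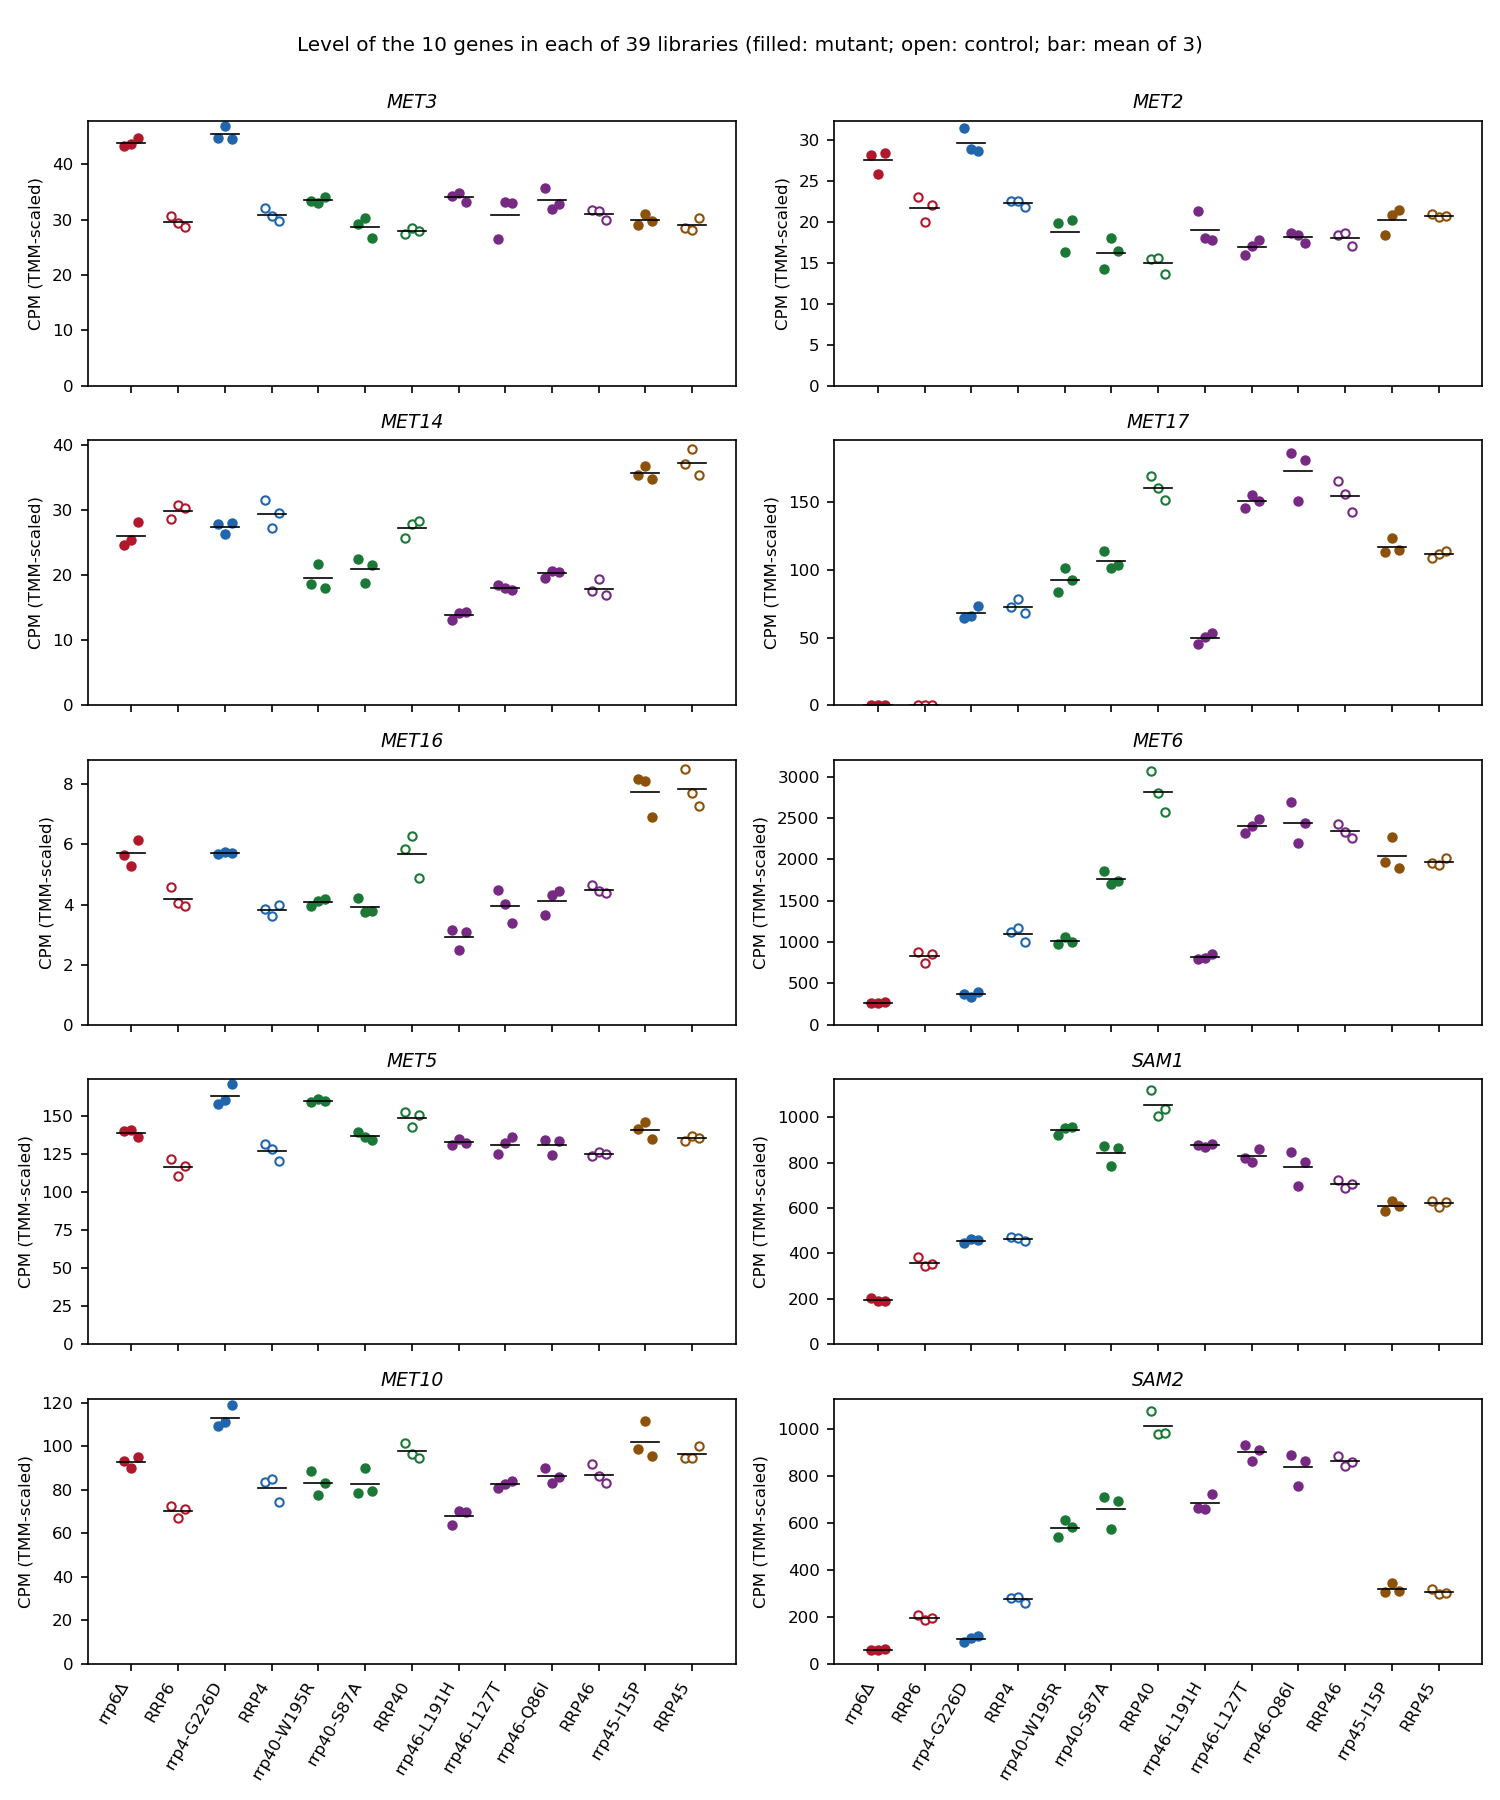
Level of each of the 10 genes in every library, in CPM on a linear axis that starts at 0. Filled points are mutants and open points controls, each mutant left of its control, with a bar at the mean of 3 libraries. As a fold between group means MET17 covers the widest range, being near 0 in both groups of the RRP6 family. Next come SAM2, MET6 and SAM1, with group means of MET6 between 268 CPM in rrp6Δ and 2811 CPM in RRP40.

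The 10 genes did not move as a block. MET6 and SAM2 fell in 5 of the 8 mutants, MET3 rose in 4, and MET16 and MET10, which act in sulfate reduction, rose in 2 and fell in 3. In rrp6Δ, 5 of the 9 genes that could be tested rose (42.6% of all features tested did) and 4 fell (40.9%), with a median log2 fold change of 0.27 beside 0.0276 over all features. In rrp4-G226D, 5 of 10 rose (36.1% of all features) and 2 fell (35.9%), with a median of 0.18 beside 0.0194. In rrp40-W195R, 2 rose (26% of all features) and 7 fell (26.5%), with a median of -0.37 beside 0.0243. In rrp40-S87A, 0 rose (7.69% of all features) and 7 fell (7.8%), with a median of -0.34 beside -0.000233. For rises in rrp40-S87A, DESeq2 also called 0, and 0 had an unadjusted p under 0.05 in edgeR. In rrp46-L191H, 2 rose (31.4% of all features) and 6 fell (31%), with a median of -0.35 beside 0.000642. Scaled by library totals alone, 6 genes were higher and 3 lower in rrp6Δ, 8 and 2 in rrp4-G226D, 4 and 3 in rrp40-W195R, 0 and 7 in rrp40-S87A, and 4 and 6 in rrp46-L191H. Of all features called, the share that was higher was then 83.7% in rrp6Δ (51.1% with TMM factors), 84.7% in rrp4-G226D (50.1%), 89% in rrp40-W195R (49.5%), 75.1% in rrp40-S87A (49.7%) and 73.8% in rrp46-L191H (50.3%). MET6 and SAM2 were called lower in all 5 of these mutants under both scalings, though library totals moved MET6 to -1.01 and SAM2 to -1.09 in rrp6Δ, and SAM2 to -0.17 in rrp46-L191H and to -0.50 in rrp40-W195R. SAM1 moved to -0.25 in rrp6Δ and stayed called. The alleles of RRP40 share their 3 control libraries, as do the alleles of RRP46.

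**Figure D2:**
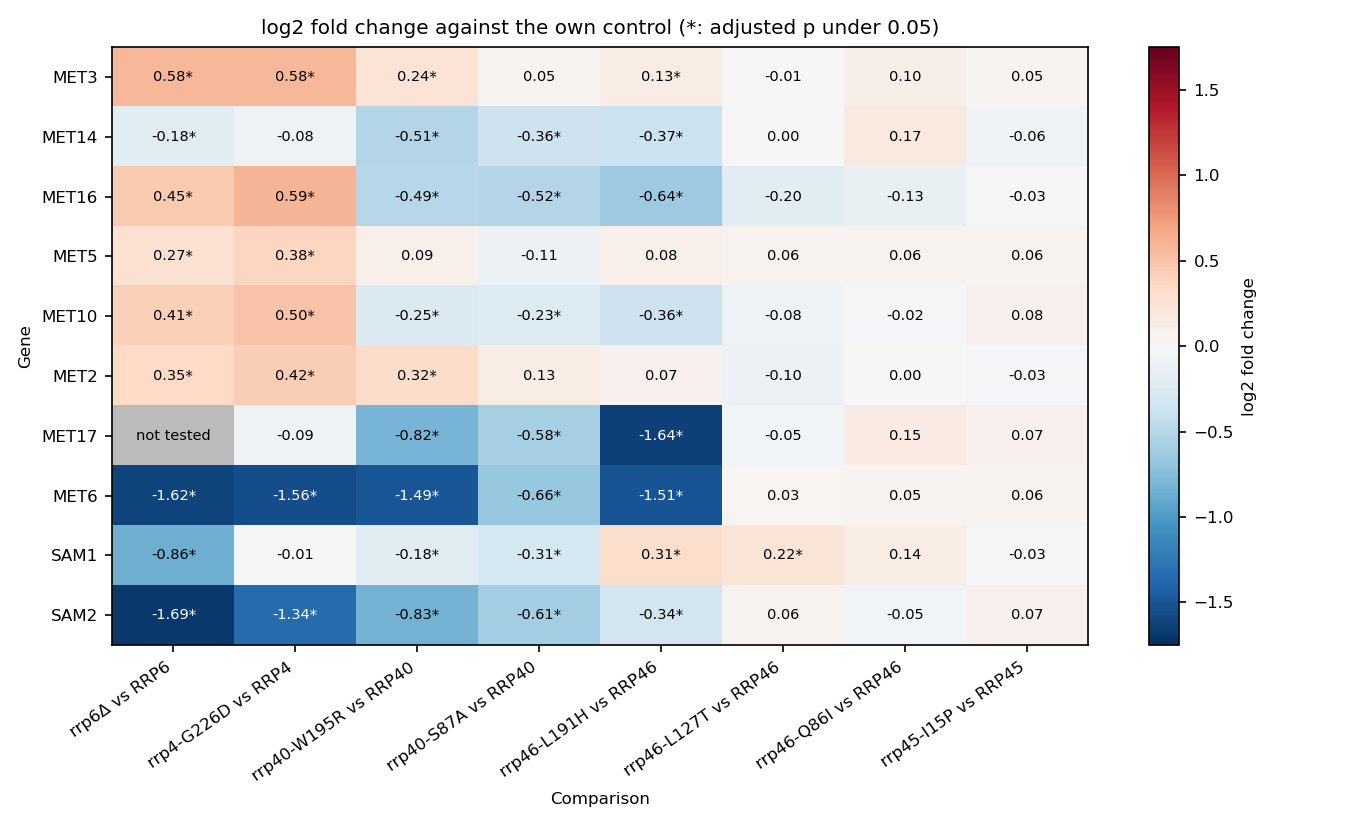
Log2 fold change of each gene (rows) in each mutant against its own control (columns), with an asterisk where the gene was called changed. MET6 and SAM2 are lower in all of rrp6Δ, rrp4-G226D, rrp40-W195R, rrp40-S87A and rrp46-L191H, and rrp46-Q86I and rrp45-I15P have no called gene.

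Sulfate activation opens the pathway, and its 2 genes parted. MET3 stood at 43.3, 43.7 and 44.8 CPM in the rrp6Δ libraries, against 30.6, 29.4 and 28.7 CPM in the RRP6 libraries. All rrp6Δ libraries were above all RRP6 libraries, and MET3 rose by 0.58 on the log2 scale (SE 0.0483, adjusted p 8.96e-09). In rrp4-G226D it stood at 44.7, 46.9 and 44.6 CPM, against 32.2, 30.7 and 29.7 CPM in RRP4 (0.58, SE 0.0514, adjusted p 5.08e-09). The rise was smaller in rrp40-W195R, with 33.3, 33.0 and 34.1 CPM against 27.5, 28.5 and 27.9 CPM in RRP40 (0.24, SE 0.0604, adjusted p 0.00656). The rise in rrp46-L191H was smaller still, with 34.2, 34.9 and 33.2 CPM against 31.7, 31.5 and 30.0 CPM in RRP46 (0.13, SE 0.0512, adjusted p 0.0365). The last call was lost with DESeq2 (adjusted p 0.0933), without RRP46 replicate 2 (0.0629) or 3 (0.0963) and without rrp46-L191H replicate 1 (0.0895) or 2 (0.13). Across the 13 groups the mean of MET3 spanned only 1.62-fold, and the 11 groups below rrp4-G226D and rrp6Δ lay between 28.0 and 34.1 CPM.

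MET14, the kinase that follows MET3, was called higher in none of the 8 mutants. It stood at 18.7, 21.8 and 18.0 CPM in rrp40-W195R and at 22.6, 18.8 and 21.5 CPM in rrp40-S87A, against 25.7, 27.9 and 28.4 CPM in RRP40. Neither mutant overlapped the control, and MET14 fell by 0.51 in rrp40-W195R (SE 0.0852, adjusted p 0.000521) and by 0.36 in rrp40-S87A (SE 0.0801, adjusted p 0.00851). In rrp46-L191H it stood at 13.1, 14.1 and 14.4 CPM, the lowest of all groups, against 17.5, 19.4 and 16.95 CPM in RRP46 (-0.37, SE 0.0732, adjusted p 0.000625). In rrp6Δ it stood at 24.6, 25.4 and 28.1 CPM, against 28.7, 30.8 and 30.3 CPM in RRP6 (-0.18, SE 0.0618, adjusted p 0.0123). With library totals the value in rrp6Δ turned to 0.42 (adjusted p 3.68e-05), and without rrp6Δ replicate 1 it was not called (adjusted p 0.0577). With library totals the fall in rrp40-W195R was not called either (adjusted p 0.0876). The rrp45-I15P and RRP45 groups held 35.7 ± 0.97 and 37.3 ± 2.1 CPM (SD, n = 3 each, as for all means below), above every other group without overlap.

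MET16 and MET10 of sulfate reduction rose in rrp6Δ and rrp4-G226D and fell in rrp40-W195R, rrp40-S87A and rrp46-L191H. MET16, the reductase that makes sulfite, had the lowest level of the 10 per length in the RRP40 control, 7.22 CPM per kilobase of coding sequence. It stood at 5.66, 5.28 and 6.16 CPM in rrp6Δ, against 4.60, 4.06 and 3.94 CPM in RRP6 (0.45, SE 0.109, adjusted p 0.00113). In rrp4-G226D it stood at 5.70, 5.74 and 5.71 CPM, against 3.85, 3.62 and 3.99 CPM in RRP4 (0.59, SE 0.103, adjusted p 3.73e-05). Neither pair of groups overlapped. It fell to 3.95, 4.12 and 4.18 CPM in rrp40-W195R and 4.22, 3.77 and 3.78 CPM in rrp40-S87A, against 5.84, 6.29 and 4.89 CPM in RRP40. The log2 fold changes were -0.49 in rrp40-W195R (SE 0.131, adjusted p 0.00839) and -0.52 in rrp40-S87A (SE 0.13, adjusted p 0.0169). In rrp46-L191H it stood at 3.14, 2.49 and 3.08 CPM, against 4.64, 4.45 and 4.39 CPM in RRP46 (-0.64, SE 0.126, adjusted p 0.000646). With library totals the fall in rrp40-W195R was not called (adjusted p 0.293). The fall in rrp40-S87A was not called without RRP40 replicate 1 (adjusted p 0.0566) or 2 (0.0867), or without rrp40-S87A replicate 3 (0.0676).

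MET10 and MET5 encode the subunits of sulfite reductase, and MET10 followed the directions of MET16. MET10 stood at 93.0, 90.1 and 94.9 CPM in rrp6Δ, against 72.4, 66.9 and 71.0 CPM in RRP6 (0.41, SE 0.0426, adjusted p 1.45e-07). It stood at 109.3, 111.1 and 119.0 CPM in rrp4-G226D, against 83.4, 84.9 and 74.3 CPM in RRP4 (0.50, SE 0.0492, adjusted p 4.53e-08). All mutant libraries in these 2 comparisons were above their controls. It fell to 63.7, 70.0 and 69.9 CPM in rrp46-L191H, against 91.7, 86.4 and 82.96 CPM in RRP46 (-0.36, SE 0.0517, adjusted p 5.02e-05). In the RRP40 family it stood at 88.6, 77.4 and 83.3 CPM in rrp40-W195R and 78.4, 90.2 and 79.2 CPM in rrp40-S87A, against 101.7, 96.6 and 94.7 CPM in RRP40. The log2 fold changes there were -0.25 in rrp40-W195R (SE 0.0603, adjusted p 0.00462) and -0.23 in rrp40-S87A (SE 0.059, adjusted p 0.0172). With library totals the value in rrp40-W195R was 0.08 and not called (adjusted p 0.285). The call in rrp40-S87A was lost without RRP40 replicate 1 (adjusted p 0.0622) or 2 (0.0658) and without rrp40-S87A replicate 1 (0.0551) or 3 (0.0811).

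MET5, the other subunit, had the smallest range of the 10 genes, with group means from 116 CPM in RRP6 to 163 CPM in rrp4-G226D. It stood at 140.2, 140.9 and 135.8 CPM in rrp6Δ, against 121.6, 110.6 and 116.8 CPM in RRP6 (0.27, SE 0.0427, adjusted p 2.29e-05). In rrp4-G226D it stood at 158.0, 160.3 and 170.9 CPM, against 131.7, 127.9 and 120.5 CPM in RRP4 (0.38, SE 0.042, adjusted p 1.11e-07). The mutant libraries of both pairs lay above their controls. MET5 was not called in the other 6 mutants, whose means ran from 130.9 to 159.8 CPM.

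MET2 makes the carbon acceptor for sulfide, and it was higher in 3 mutants. It stood at 28.1, 25.8 and 28.4 CPM in rrp6Δ, against 23.0, 20.0 and 22.0 CPM in RRP6 (0.35, SE 0.063, adjusted p 7.78e-05). In rrp4-G226D it stood at 31.4, 28.9 and 28.6 CPM, against 22.5, 22.5 and 21.8 CPM in RRP4 (0.42, SE 0.0589, adjusted p 2.37e-06). In rrp40-W195R it stood at 19.9, 16.3 and 20.2 CPM, against 15.5, 15.6 and 13.6 CPM in RRP40 (0.32, SE 0.099, adjusted p 0.0184). The groups did not overlap in any of the 3 comparisons. The call in rrp40-W195R was lost without RRP40 replicate 3 (adjusted p 0.0705) and without rrp40-W195R replicate 1 (0.0729) or 3 (0.0607).

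MET17, which adds sulfide to the product of Met2, was near 0 in the RRP6 family. Its reads numbered 1, 1 and 2 in the rrp6Δ libraries and 4, 2 and 3 in the RRP6 libraries, so it was too low to be tested in rrp6Δ. The 9 reads of the 3 RRP6 libraries compared with 13071 in the 3 RRP40 libraries, a ratio per library total of 0.000661 (95% exact interval 0.000302 to 0.00126, counting error only). Against the 52083 reads of the 12 libraries of the RRP4, RRP40, RRP45 and RRP46 controls the ratio was 0.000807 (0.000369 to 0.00153). The open reading frame YLR302C overlaps MET17 in RefSeq's R64 annotation, and it averaged 0.0287 CPM in rrp6Δ and 0.0129 CPM in RRP6, against 0.576 to 1.68 CPM in the other groups. The other 9 genes overlap no annotated gene.

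Where MET17 was present it fell in 3 missense mutants. It stood at 45.6, 50.7 and 53.1 CPM in rrp46-L191H, against 165.8, 156.1 and 143.0 CPM in RRP46, the lowest fold change of the 10 genes in that mutant (-1.64, SE 0.0647, adjusted p 1.8e-09). It stood at 83.7, 101.7 and 92.7 CPM in rrp40-W195R and 114.2, 101.5 and 103.5 CPM in rrp40-S87A, against 169.3, 160.7 and 152.1 CPM in RRP40. Neither RRP40 mutant overlapped the control, with -0.82 in rrp40-W195R (SE 0.0705, adjusted p 7.43e-06) and -0.58 in rrp40-S87A (SE 0.0564, adjusted p 6e-05). It was not called in rrp4-G226D, with 67.9 ± 4.6 CPM against 73.0 ± 5.1 CPM in RRP4. The RRP4 control itself lay below the RRP40, RRP45 and RRP46 controls, which averaged 160.7, 111.6 and 155.0 CPM.

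MET6, the cobalamin-independent methionine synthase, fell in 5 mutants. Per kilobase of coding sequence it had the highest level of the 10 in the RRP40 control, 1220 CPM per kilobase, beside 917 for SAM1 and 878 for SAM2. It stood at 265.6, 266.7 and 270.8 CPM in rrp6Δ, against 879.1, 748.2 and 857.7 CPM in RRP6 (-1.62, SE 0.0568, adjusted p 4e-13). In rrp4-G226D it stood at 372.1, 337.4 and 400.2 CPM, against 1118, 1171 and 1004 CPM in RRP4 (-1.56, SE 0.0696, adjusted p 3.58e-09). No library of either mutant overlapped its control. In rrp46-L191H it stood at 797.6, 807.0 and 858.3 CPM, against 2430, 2328 and 2254 CPM in RRP46 (-1.51, SE 0.05, adjusted p 2.96e-10). In rrp40-W195R it stood at 978.8, 1060 and 1005 CPM, against 3065, 2802 and 2567 CPM in RRP40 (-1.49, SE 0.0746, adjusted p 2.01e-07). The other RRP40 allele fell less, to 1863, 1698 and 1735 CPM in rrp40-S87A (-0.66, SE 0.0668, adjusted p 6e-05).

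The AdoMet synthetases SAM1 and SAM2 are close paralogs that make the same product. Their coding sequences match at 956 of 1155 aligned positions (82.8%), with a longest identical stretch of 59 bases, so some reads may fit both and the split between them is uncertain. SAM2 fell in the same 5 mutants as MET6. It stood at 59.3, 60.3 and 62.2 CPM in rrp6Δ, against 209.1, 187.2 and 195.6 CPM in RRP6 (-1.69, SE 0.046, adjusted p 6.41e-14). In rrp4-G226D it stood at 95.2, 108.8 and 119.1 CPM, against 281.2, 285.7 and 259.6 CPM in RRP4 (-1.34, SE 0.0741, adjusted p 2.22e-07). Both mutants lay far below their controls. In the RRP40 family it stood at 541.5, 613.4 and 582.4 CPM in rrp40-W195R and 713.6, 573.6 and 695.0 CPM in rrp40-S87A, against 1079, 979.2 and 983.0 CPM in RRP40. The log2 fold changes were -0.83 in rrp40-W195R (SE 0.0658, adjusted p 4.08e-06) and -0.61 in rrp40-S87A (SE 0.0798, adjusted p 0.000944). In rrp46-L191H the fall was smaller, with 664.6, 662.5 and 725.9 CPM against 887.4, 844.8 and 859.2 CPM in RRP46 (-0.34, SE 0.0474, adjusted p 4.02e-05).

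SAM1 took different directions in different mutants. It stood at 205.9, 192.2 and 191.9 CPM in rrp6Δ, against 382.3, 342.6 and 351.5 CPM in RRP6 (-0.86, SE 0.0498, adjusted p 1.2e-10). In rrp4-G226D it was not called, at 446.9, 462.4 and 460.5 CPM against 471.4, 470.1 and 453.0 CPM in RRP4, and these groups overlapped. It fell to 874.0, 783.6 and 865.3 CPM in rrp40-S87A, against 1120, 1003 and 1037 CPM in RRP40 (-0.31, SE 0.0591, adjusted p 0.00355). In rrp40-W195R it stood at 921.1, 954.0 and 958.5 CPM (-0.18, SE 0.0598, adjusted p 0.0262). With library totals the value in rrp40-W195R turned to 0.15 (adjusted p 0.0188), and it was not called without RRP40 replicate 1 (adjusted p 0.107) or 3 (0.0567), or without rrp40-W195R replicate 1 (0.0683). In rrp46-L191H SAM1 rose, with 877.0, 867.7 and 881.2 CPM against 724.2, 687.9 and 707.7 CPM in RRP46 (0.31, SE 0.041, adjusted p 2.78e-05).

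Ratios of counts within a library do not depend on how libraries are scaled. SAM1 over SAM2 counts averaged 3.25 ± 0.20 in rrp6Δ against 1.82 ± 0.019 in RRP6, and 4.27 ± 0.41 in rrp4-G226D against 1.69 ± 0.051 in RRP4. It averaged 1.63 ± 0.074 in rrp40-W195R and 1.28 ± 0.076 in rrp40-S87A against 1.04 ± 0.015 in RRP40. In the RRP46 family it averaged 1.28 ± 0.058 in rrp46-L191H, 0.916 ± 0.030 in rrp46-L127T and 0.930 ± 0.016 in rrp46-Q86I, against 0.818 ± 0.0050 in RRP46. In these 7 mutants every library had a higher ratio than every library of its control. In rrp45-I15P the ratio averaged 1.90 ± 0.070, against 2.03 ± 0.041 in RRP45, and every mutant library was lower.

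MET6 over MET3 sets the gene of methionine synthase against 1 gene of sulfate activation. It combines changes already given for each gene, and MET14, the other activation gene, was called higher in no mutant. In rrp40-S87A only MET6 of the pair was called. The ratio averaged 6.10 ± 0.040 in rrp6Δ against 28.1 ± 2.3 in RRP6, and 8.17 ± 0.90 in rrp4-G226D against 35.6 ± 2.3 in RRP4. It averaged 30.3 ± 1.6 in rrp40-W195R and 61.7 ± 5.0 in rrp40-S87A, against 100.6 ± 10.1 in RRP40. In the RRP46 family it averaged 24.1 ± 1.5 in rrp46-L191H, 78.5 ± 8.0 in rrp46-L127T and 72.8 ± 3.6 in rrp46-Q86I, against 75.3 ± 1.4 in RRP46. The ratio was thus lower without overlap in rrp6Δ, rrp4-G226D, rrp40-W195R, rrp40-S87A and rrp46-L191H. In rrp45-I15P it averaged 68.3 ± 4.8, against 67.9 ± 1.0 in RRP45, with overlapping libraries. The ratios are descriptions of 3 libraries a group: an exact permutation test of 3 against 3 cannot give a two-sided p below 0.1.

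**Figure D3:**
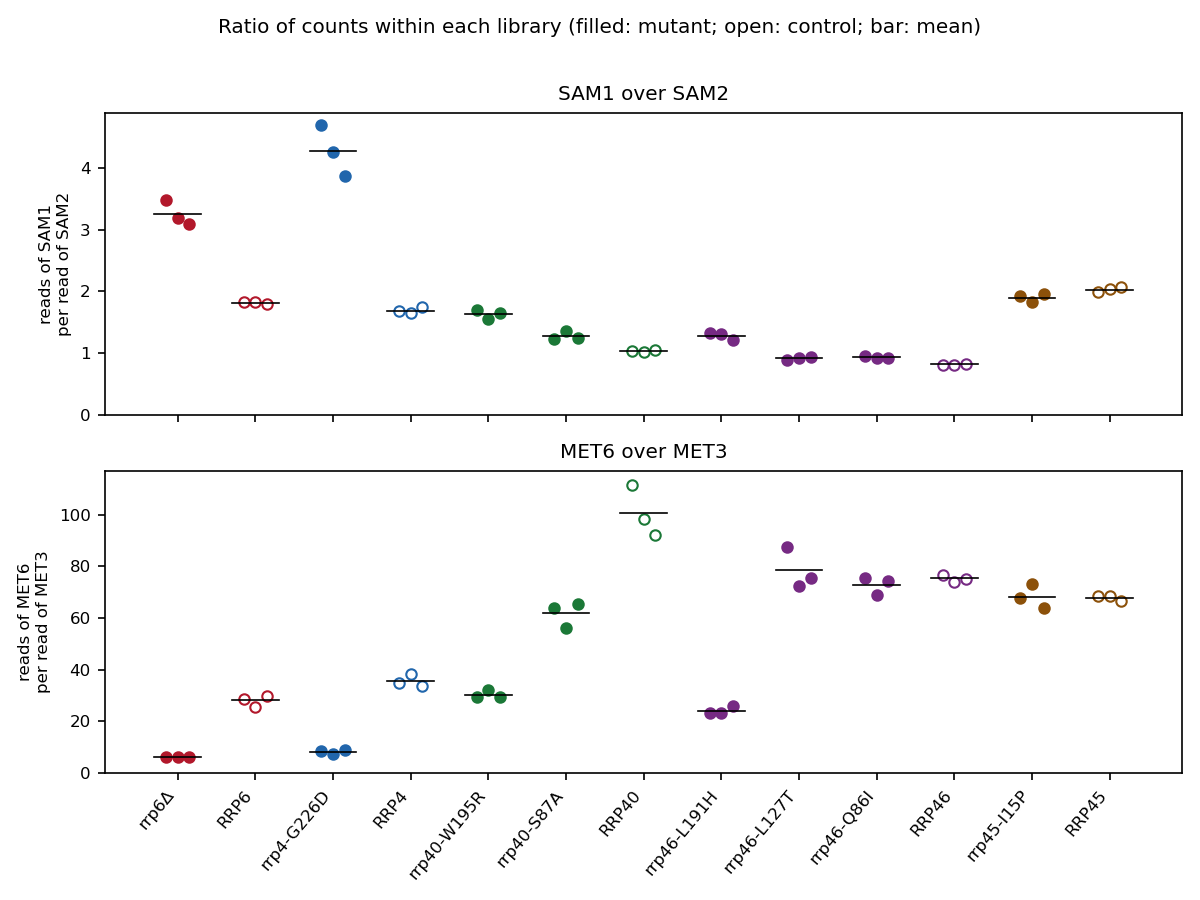
Ratio of SAM1 to SAM2 counts and of MET6 to MET3 counts in each library, with filled points for mutants and open points for controls, each mutant left of its control, and a bar at the mean of 3 libraries. SAM1 over SAM2 is highest in rrp4-G226D (mean 4.27) and rrp6Δ (mean 3.25), and MET6 over MET3 is lowest in the same groups (means 8.17 and 6.10).

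In 3 missense mutants the 10 genes showed 1 call or none. In rrp46-L127T only SAM1 was called, with 821.4, 803.3 and 857.7 CPM against 724.2, 687.9 and 707.7 CPM in RRP46 (0.22, SE 0.0503, adjusted p 0.0318). That is 1 of 10 higher (2.63% of all features tested) and 0 lower (2.62%); for falls, DESeq2 also called 0 and 0 had an unadjusted p under 0.05 in edgeR. The call for SAM1 was lost without RRP46 replicate 1 (adjusted p 0.0669), 2 (0.139) or 3 (0.0741) and without rrp46-L127T replicate 2 (0.0813) or 3 (0.121). In rrp46-Q86I edgeR and DESeq2 called 0 of 10 genes, and 2, MET14 and SAM1, had an unadjusted p under 0.05 in edgeR; of all features tested 0.41% were higher and 0.106% lower. Its levels were close to those of RRP46 in most genes, for example 2441 ± 251 CPM against 2338 ± 88 CPM in RRP46 for MET6. RRP46 itself averaged 99.5 CPM in rrp46-Q86I and 561.1 CPM in RRP46. In rrp45-I15P edgeR and DESeq2 called 0 of 10, and 0 had an unadjusted p under 0.05 in edgeR; of all features tested 0.0266% were higher and 0% lower, where 305 had an unadjusted p under 0.05 for a fall and DESeq2 called 4. Estimates of the 10 log2 fold changes in rrp45-I15P ran from -0.06 to 0.08, with SE up to 0.0951.

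The RRP6 control was set beside the other controls, since the RRP6 family alone carries met15Δ0. The RRP40 control is the other MATa control. The groups also differ in the exosome gene on the plasmid and in the deletion marker. Of the other controls, RRP4, RRP45 and RRP46 are MATα, and RRP4 and RRP46 are lys2Δ0. Any culture or library batch is unlabelled, so what follows describes strains, and met15Δ0 cannot be told apart from these differences. Against RRP40, 1 of 10 genes was higher in RRP6 (34.7% of all features tested) and 7 were lower (33%), with a median log2 difference of -0.46 beside 0.0348 over all features. Against the mean of the RRP4, RRP40, RRP45 and RRP46 controls, 2 were higher (35.1% of all features) and 7 lower (30.7%), with a median of -0.32 beside 0.0404. The lower genes of both comparisons, and both medians, include MET17. It is deleted in RRP6, so its call was set by the genotype and is no result about the pathway. With library totals 3 were higher and 5 lower in each comparison, while 81.8% of all features called were higher in each (51.2% and 53.3% with TMM factors). These comparisons share the RRP6 and RRP40 libraries.

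The last steps of the pathway stood lowest in RRP6 among the controls. SAM2 averaged 197.3 ± 11 CPM in RRP6, against 275.5 ± 14.0 in RRP4, 305.8 ± 10.8 in RRP45, 863.8 ± 21.6 in RRP46 and 1014 ± 57 in RRP40. The difference was -2.37 from RRP40 (SE 0.057, adjusted p 1.05e-12) and -1.38 from the other controls together (SE 0.0447, adjusted p 8.3e-17). MET6 averaged 828.3 ± 70.2 CPM in RRP6, against 1098 ± 85 in RRP4, 1965 ± 46 in RRP45, 2338 ± 88 in RRP46 and 2811 ± 249 in RRP40. Its difference was -1.77 from RRP40 (SE 0.0733, adjusted p 3.55e-10) and -1.21 from the other controls (SE 0.0575, adjusted p 2.43e-13). SAM1 averaged 358.8 ± 20.8 CPM in RRP6, against 464.8 ± 10.2 in RRP4, 620.5 ± 15.5 in RRP45, 706.6 ± 18.2 in RRP46 and 1053 ± 60 in RRP40. Its difference was -1.56 from RRP40 (SE 0.0567, adjusted p 3.15e-11) and -0.91 from the other controls (SE 0.0407, adjusted p 2.17e-14). In these 3 genes the RRP6 libraries overlapped no other control, and the RRP4 control, which has MET17, was the next lowest. The same held for MET10 of sulfate reduction, and MET5 had its lowest mean in RRP6 with libraries that overlapped RRP4. Of all features tested, 30.7% were called lower in RRP6 than in the other controls, and no share without overlap is given.

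The sulfate genes differed less between RRP6 and the other controls. MET3 was not called in either comparison, with 29.5 ± 0.96 CPM in RRP6 against 28.0 to 31.1 CPM as means of the others. MET14 averaged 29.9 ± 1.1 CPM in RRP6 and was not called against RRP40, but differed by 0.16 from the other controls together (SE 0.0515, adjusted p 0.00852), whose means ran from 17.9 to 37.3 CPM and overlapped RRP6. MET16 differed by -0.43 from RRP40 (SE 0.125, adjusted p 0.00719) and by -0.30 from the other controls (SE 0.0875, adjusted p 0.0048). MET10 differed by -0.49 from RRP40 (SE 0.0463, adjusted p 4.7e-07) and by -0.34 from the other controls (SE 0.042, adjusted p 2.35e-07), at 70.1 ± 2.9 CPM in RRP6 against 80.9 to 97.6 CPM. MET5 differed by -0.36 from RRP40 (SE 0.0454, adjusted p 8.37e-06) and by -0.18 from the other controls (SE 0.0339, adjusted p 7.46e-05). MET2 was higher in both comparisons, by 0.53 than in RRP40 without overlap (SE 0.0779, adjusted p 3.27e-05) and by 0.23 than in the other controls (SE 0.0503, adjusted p 0.000395), whose libraries overlapped RRP6. With library totals the median of all features moved to 0.385 against RRP40 and 0.273 against the other controls. MET16 was then not called in either comparison (adjusted p 0.548 and 0.495), and MET5 was -0.01 against RRP40 (adjusted p 0.852) and 0.05 against the other controls (adjusted p 0.133).

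**Figure D4:**
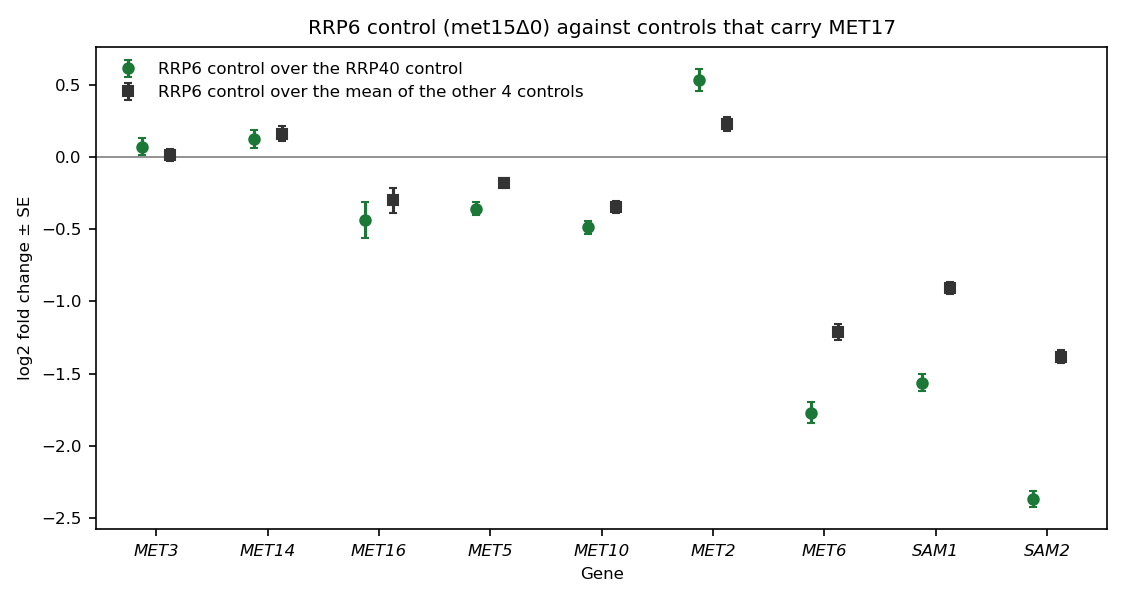
Log2 difference of 9 genes between the RRP6 control and the RRP40 control, and between the RRP6 control and the mean of the other 4 controls, with bars of 1 standard error. SAM2, MET6 and SAM1 lie furthest below 0 (-2.37, -1.77 and -1.56 against RRP40), and MET2 lies above 0 in both.

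The effect of deleting RRP6 in the met15Δ0 background was tested against the mean effect of the 7 missense alleles in strains with MET17, in 1 fit of 39 libraries. Of 9 genes the rrp6Δ effect was higher in 5 (37.9% of all features tested) and lower in 3 (38.7%), with a median of 0.17 beside 0.0169 over all features. With library totals 6 were higher and 3 lower, and 81.8% of all features called were higher (49.5% with TMM factors). The differences printed next are with TMM factors; library totals moved that of SAM2 to -0.77 and that of MET6 to -0.40, both still called. MET16 changed by 0.44 in rrp6Δ and by -0.20 in the mean of the missense alleles, a difference of 0.64 (SE 0.115, adjusted p 5.25e-06). MET10 changed by 0.40 in rrp6Δ and by -0.05 in the missense mean, a difference of 0.45 (SE 0.0647, adjusted p 7.59e-08), and MET3 changed by 0.57 in rrp6Δ and by 0.17 in the missense mean, a difference of 0.41 (SE 0.062, adjusted p 2.53e-07). At the other end SAM2 changed by -1.70 in rrp6Δ and by -0.43 in the missense mean, a difference of -1.27 (SE 0.082, adjusted p 3.77e-16). SAM1 changed by -0.87 in rrp6Δ and by 0.02 in the missense mean (difference -0.89, SE 0.0592, adjusted p 2.64e-16), and MET6 changed by -1.63 in rrp6Δ and by -0.72 in the missense mean (difference -0.90, SE 0.081, adjusted p 1.33e-12). The missense mean averages alleles with many calls and alleles with none, and rrp4-G226D on its own had log2 fold changes of 0.59 for MET16, 0.50 for MET10 and -1.56 for MET6. The deletion of RRP6 and the loss of MET17 were not varied separately.

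The other genes of sulfur metabolism were taken as a list of 36, of which the sulfate permeases SUL1 and SUL2 were listed at 0 in all 39 libraries and 33 or 34 could be tested in each comparison. In all, 703 of the 8898 features were listed at 0 throughout. Why SUL1 and SUL2 are among them was not tested, and their 0 counts are not read as absent expression. In rrp6Δ 10 of 34 rose (42.6% of all features tested did) and 17 fell (40.9%), with a median of -0.126 beside 0.0276 over all features. In rrp4-G226D 11 of 33 rose (36.1% of all features) and 17 fell (35.9%), with a median of -0.15 beside 0.0194. In rrp40-W195R 2 of 33 rose (26%) and 21 fell (26.5%), with a median of -0.284 beside 0.0243. In rrp40-S87A 1 of 33 rose (7.69%) and 10 fell (7.8%), with a median of -0.188 beside -0.000233. In rrp46-L191H 5 of 34 rose (31.4%) and 17 fell (31%), with a median of -0.133 beside 0.000642. These directions depended on the scaling: with library totals 22 rose and 9 fell in rrp6Δ, 19 and 11 in rrp4-G226D, 11 and 11 in rrp40-W195R, 1 and 8 in rrp40-S87A, and 11 and 10 in rrp46-L191H. In rrp46-L127T 1 of 34 rose (2.63% of all features) and 2 fell (2.62%). In rrp46-Q86I and rrp45-I15P edgeR called 0, where 6 genes (5 higher and 1 lower) and 7 genes (all higher) had an unadjusted p under 0.05 and DESeq2 called 1 and 0.

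Genes of the methyl cycle that follows AdoMet fell beside MET6 and SAM2 in rrp6Δ. SAH1, which hydrolyses the by-product of AdoMet-dependent methylation back to homocysteine and adenosine, averaged 450.3 ± 4.8 CPM in rrp6Δ against 1279 ± 58 CPM in RRP6 (-1.49, SE 0.0492, adjusted p 2.47e-13). ADO1, the adenosine kinase that takes up the released adenosine, averaged 176.1 ± 7.6 CPM in rrp6Δ against 502.5 ± 21.8 CPM in RRP6 (-1.5, SE 0.0514, adjusted p 3.37e-13). SAH1 also fell in rrp4-G226D, with 760.5 ± 36.2 CPM against 1611 ± 39 CPM in RRP4 (-1.07, SE 0.0445, adjusted p 9.87e-14), by 0.65 in rrp40-W195R (SE 0.0615, adjusted p 1.35e-05) and by 0.31 in rrp40-S87A (SE 0.0543, adjusted p 0.00227). ADO1 fell in the same 3 mutants, by 0.77 in rrp4-G226D (SE 0.0385, adjusted p 1.2e-12), by 0.42 in rrp40-W195R (SE 0.0582, adjusted p 0.00014) and by 0.22 in rrp40-S87A (SE 0.0485, adjusted p 0.00938). Of these, ADO1 in rrp40-W195R lost its call under library totals (adjusted p 0.113). HOM2, an enzyme of homoserine synthesis upstream of Met2, changed by -1.41 in rrp6Δ (SE 0.0473, adjusted p 2.82e-13), -0.85 in rrp4-G226D (SE 0.0407, adjusted p 5.97e-13), -0.82 in rrp40-W195R (SE 0.0511, adjusted p 8.99e-07) and -0.69 in rrp46-L191H (SE 0.0473, adjusted p 9.32e-08). MHT1, a methyltransferase that makes methionine from S-methylmethionine, rose in rrp6Δ to 23.7 ± 0.95 CPM against 11.6 ± 0.55 CPM in RRP6 (1.04, SE 0.0663, adjusted p 3.64e-10), and in rrp4-G226D to 17.7 ± 0.80 CPM against 10.2 ± 0.65 CPM in RRP4 (0.78, SE 0.073, adjusted p 1.02e-08). In rrp46-L191H, ADO1 was higher by 0.10 (adjusted p 0.0471, and 0.0521 with DESeq2) and MHT1 differed by -0.24 with overlapping libraries (adjusted p 0.0408, and 0.177 without RRP46 replicate 2).

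STR3, a cystathionine beta-lyase that makes homocysteine, split the mutants as MET16 did. It rose to 25.3 ± 1.3 CPM in rrp6Δ, against 13.5 ± 0.23 CPM in RRP6 (0.91, SE 0.064, adjusted p 1.14e-09), and to 18.1 ± 0.39 CPM in rrp4-G226D, against 11.9 ± 0.56 CPM in RRP4 (0.62, SE 0.0682, adjusted p 9.13e-08). It fell to 10.7 ± 1.2 CPM in rrp40-W195R (-1.09, SE 0.104, adjusted p 1.37e-05) and 14.8 ± 1.1 CPM in rrp40-S87A (-0.60, SE 0.0868, adjusted p 0.000622), against 22.5 ± 2.0 CPM in RRP40. In rrp46-L191H it averaged 9.40 ± 0.91 CPM, against 16.4 ± 2.2 CPM in RRP46 (-0.80, SE 0.105, adjusted p 2.45e-05). The rrp6Δ effect on STR3 exceeded the missense mean by 1.23 (SE 0.104, adjusted p 3.74e-13). MET13, which supplies the methyl-carrying folate that Met6 uses, was called lower in 5 mutants. It fell by 0.84 in rrp40-W195R (SE 0.0684, adjusted p 5.03e-06), 0.80 in rrp4-G226D (SE 0.0591, adjusted p 2.14e-08), 0.55 in rrp40-S87A (SE 0.0628, adjusted p 0.000177), 0.51 in rrp46-L191H (SE 0.0486, adjusted p 1.41e-06) and 0.22 in rrp6Δ (SE 0.0529, adjusted p 0.00121), where library totals turned it to 0.38 (adjusted p 4.9e-06). MET32, a Met4 cofactor, rose by 0.64 in rrp4-G226D (SE 0.0728, adjusted p 1.5e-07) and by 0.37 in rrp6Δ (SE 0.0781, adjusted p 0.000393). Smaller rises of MET32 were called in rrp40-W195R (0.30, adjusted p 0.0212, and 0.0996 without RRP40 replicate 2) and rrp46-L191H (0.24, adjusted p 0.0181, with 0.0569 in DESeq2 and 0.0663 without rrp46-L191H replicate 3). MET30 rose by 0.46 in rrp40-W195R (SE 0.0793, adjusted p 0.000694), 0.37 in rrp4-G226D (SE 0.043, adjusted p 1.91e-07), 0.32 in rrp6Δ (SE 0.0465, adjusted p 7.49e-06) and 0.25 in rrp40-S87A (SE 0.0528, adjusted p 0.00744, and 0.0506 without RRP40 replicate 2). In rrp46-L127T the 3 calls were SAH1 (0.30, adjusted p 0.0208), MUP1 (-0.21, adjusted p 0.031) and MMP1 (-0.34, adjusted p 0.0255), and each was lost when RRP46 replicate 2 was left out (adjusted p 0.0871, 0.128 and 0.105). They were lost without other single libraries too, among them rrp46-L127T replicate 2 (adjusted p 0.0701, 0.0824 and 0.0795).

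**Figure D5:**
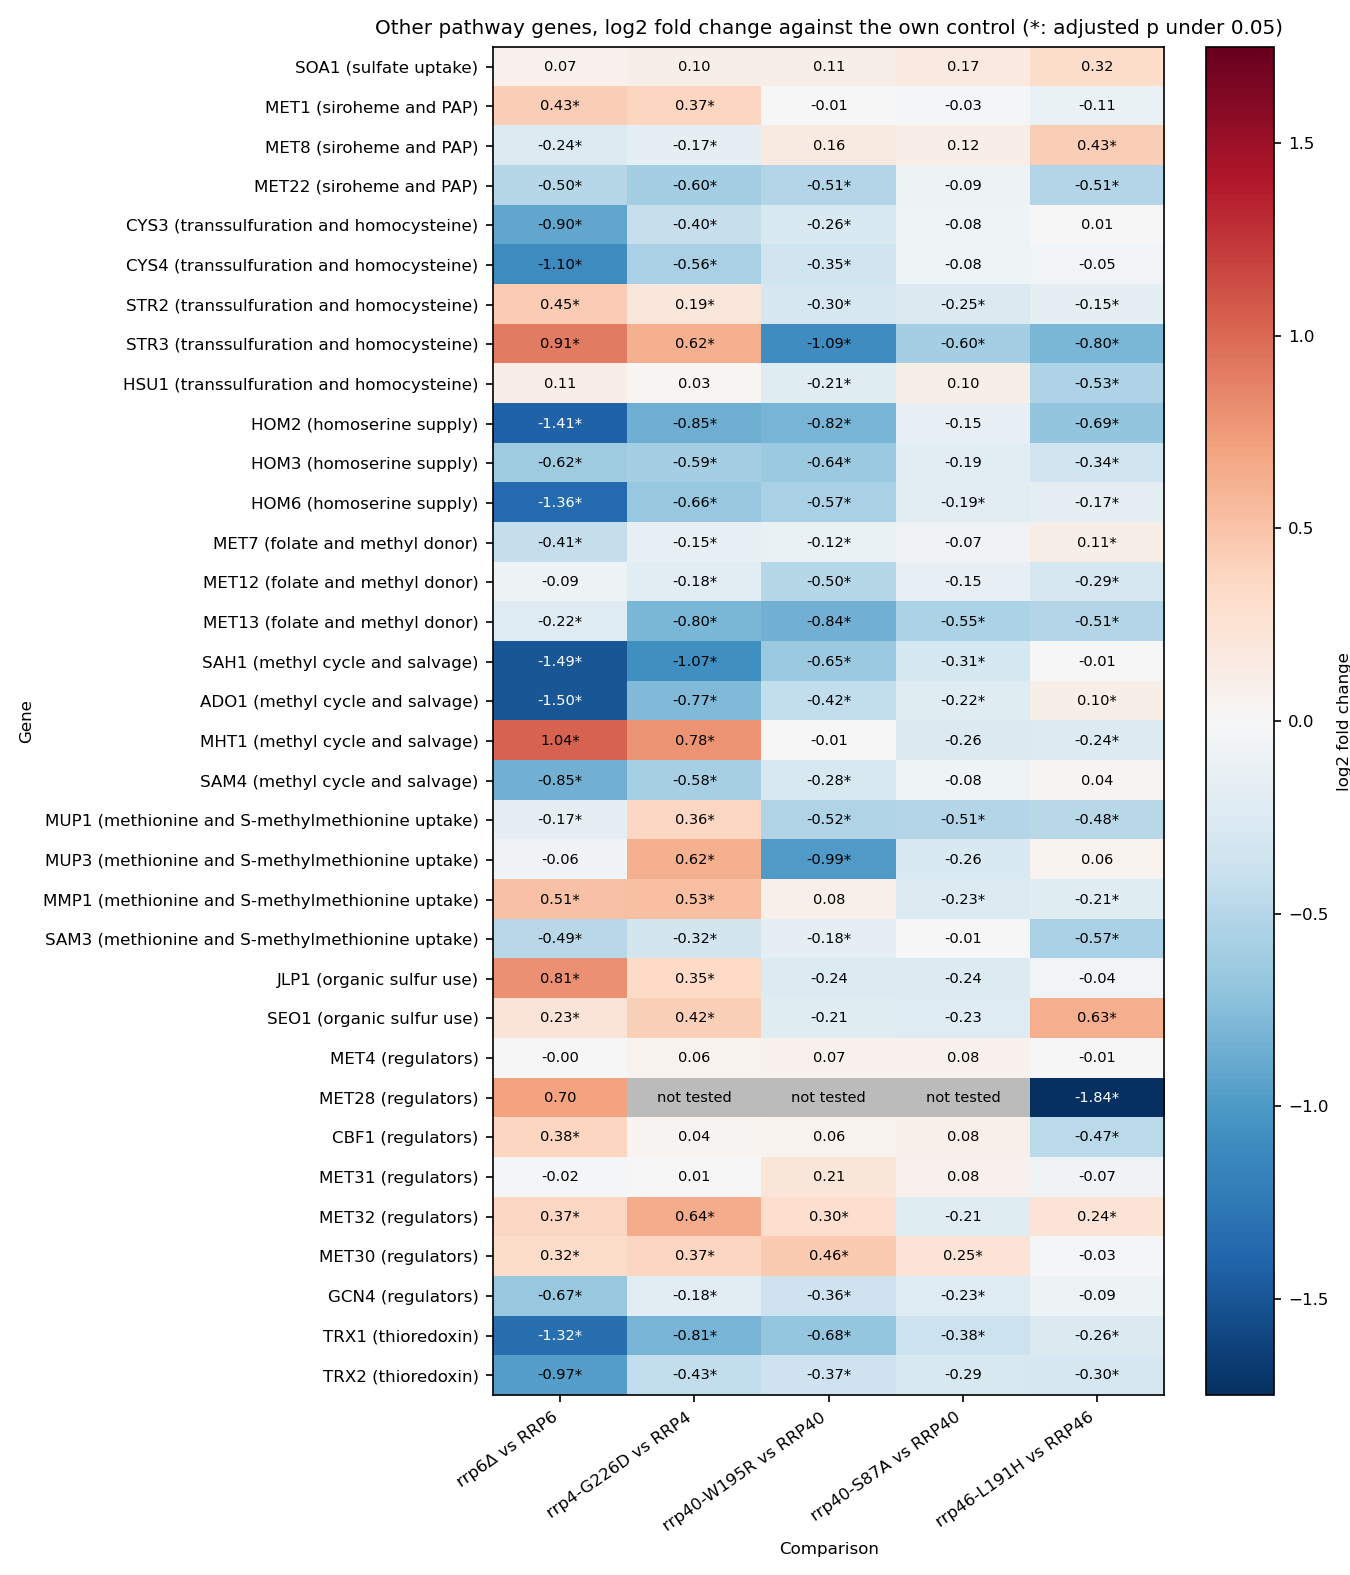
Log2 fold change of 34 other genes of sulfur metabolism (rows) in rrp6Δ, rrp4-G226D, rrp40-W195R, rrp40-S87A and rrp46-L191H against their own controls (columns), with an asterisk where the gene was called. SAH1 is at -1.49 in rrp6Δ and -1.07 in rrp4-G226D, and STR3 is positive in these mutants and negative in the other 3.

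Between the RRP6 control and the other controls genes of the list of 36 differed in both directions. Against RRP40, 6 of 33 tested genes were higher in RRP6 (34.7% of all features) and 19 lower (33%), with a median of -0.312 beside 0.0348. Against the other 4 controls 5 of 34 were higher (35.1% of all features) and 19 lower (30.7%), with a median of -0.203 beside 0.0404. With library totals 14 were higher and 12 lower against RRP40, and 14 higher and 13 lower against the other controls. MUP3, a low-affinity methionine permease, averaged 34.1 ± 4.6 CPM in RRP6 against 213.6 ± 27.8 CPM in RRP40 (-2.65, SE 0.143, adjusted p 2.13e-05). MUP3 in the RRP4 control was 29.5 ± 0.96 CPM. MET13 averaged 98.2 ± 8.7 CPM in RRP6 against 221.7 ± 19.2 CPM in RRP40 (-1.18, SE 0.0731, adjusted p 2.4e-07), and MET13 in the RRP4 control was 108.4 ± 3.8 CPM. MET8, which completes siroheme for sulfite reductase, was higher in RRP6 than in RRP40 by 0.64 (SE 0.0734, adjusted p 3.19e-06). It averaged 17.4 ± 0.36 CPM in RRP6 and 16.5 ± 1.4 CPM in the RRP4 control, with overlapping libraries.

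Ordered by mean, the 13 groups gave MET6 and SAM2 a like order, with RRP40 first and rrp6Δ last. For MET6 the 6 highest groups, RRP40, rrp46-Q86I, rrp46-L127T, RRP46, rrp45-I15P and RRP45, formed a run in which neighbours overlapped, from 2811 to 1965 CPM. Below them rrp40-S87A stood alone, RRP4 overlapped rrp40-W195R, RRP6 overlapped rrp46-L191H, and rrp4-G226D and rrp6Δ each stood apart. For SAM2 the order ended with RRP4, RRP6, rrp4-G226D and rrp6Δ, and none of these neighbours overlapped. MET2 ran the other way, with rrp4-G226D and rrp6Δ at the top and RRP40 last. Over the 13 group means of log2 level, Pearson's r was 0.92 between SAM1 and SAM2, 0.848 between MET6 and SAM2, 0.809 between MET16 and MET10, 0.804 between MET14 and MET16, -0.836 between MET3 and MET6 and -0.934 between MET2 and SAM2. Other pairs were weakly related, such as MET3 and MET16 (0.0338), MET14 and MET5 (0.0643) and MET10 and MET6 (-0.0343). The 13 group means share strains and scaling, and these correlations are given as a description. Of 5255 other features, those most like the mean standardized profile of the 9 genes other than MET17 over the 13 groups were MMP1 (r = 0.87), which takes up S-methylmethionine, PIR3 (0.832), LYS5 (0.817), DLD1 (0.809) and SLM4 (0.802). That mean pools genes that ran against each other, such as MET2 and SAM2, and spanned only -0.625 in RRP6 to 0.582 in rrp4-G226D. Likeness to it is not likeness to each gene.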

How the data were processed

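Total RNA depleted of rRNA was sequenced from 39 libraries. The deposited files hold raw counts per feature, as whole numbers, 8898 features a library; the authors used STAR, featureCounts 1.22.2 and genome build R64, per the submitters' processing notes. How the annotation, read strand and multi-mapping reads were treated is not given in the sources used here. The column names per the file headers point to alignments with marked duplicates.

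Members and lists were chosen with earlier results of these data known. In R 4.3.3, edgeR 4.0.16 was fitted to all features of each comparison's own libraries (default expression filter, TMM, robust quasi-likelihood F test, two-sided). Named were the 10 genes, with log2 fold changes where called (as a range in rrp45-I15P), the 5 most alike features and label checks. Of the 36 other genes up to 3 rises and 3 falls per comparison were picked. These had no overlap and a mean of at least 10 CPM. For 8 of the picked genes every call in other mutants was added after their values were seen. The text describes only part of the picked results, while the 125 results for single genes count all of them. DESeq2 1.42.0, library totals, other size factors, no filter, a joint fit, a replicate block and leaving out each library were tried. Replicates differed by more than counting noise. The procedure was tested on simulated counts in which few features changed, in both directions alike. That test does not bear on the choice of scaling. Promoter motifs and positions come from RefSeq's R64 genome.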

Additional observations from a re-analysis of the deposited data

Results flagged for a closer look

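The effect of deleting RRP6, in a family without MET17, differed from the mean effect of the 7 missense alleles in 8 of 9 genes (5 higher and 3 lower, where 37.9% of all features tested were higher and 38.7% lower), by the test of the difference itself over 39 libraries (edgeR's quasi-likelihood test, Benjamini-Hochberg adjusted). The log2 difference, rrp6Δ effect minus mean missense effect, was 0.64 for MET16, 0.45 for MET10, 0.41 for MET3, 0.22 for MET2 and 0.17 for MET5. It was -1.27 for SAM2, -0.90 for MET6 and -0.89 for SAM1. The adjusted p was 0.0171 for MET2 and 0.00113 for MET5. MET2 was not called without RRP6 replicate 2 (adjusted p 0.103), rrp6Δ replicate 1 (0.0523) or rrp6Δ replicate 3 (0.0784). With library totals the differences for SAM2, MET6 and SAM1 were -0.77, -0.40 and -0.38, all still called, and the 5 positive differences grew. The missense mean averages alleles with many calls and alleles with none. Of these, rrp4-G226D had log2 fold changes of 0.59 for MET16, 0.50 for MET10, 0.58 for MET3, 0.42 for MET2 and 0.38 for MET5. It had -1.56 for MET6 and -1.34 for SAM2, and SAM1 was not called there.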

How the results depend on the processing

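Results for single genes in 1 comparison numbered 125 (66 for the 10 genes and 59 for the list of 36). Direction and call held for 121 of 125 with DESeq2, 111 of 111 in a joint fit of 39 libraries, 125 of 125 with no filter on low counts, 124 of 125 with RLE size factors, and 1266 of 1320 when 1 library was left out. Library totals kept 113; 7 were no longer called and 5 turned, MET14 (0.42) and MET13 (0.383) in rrp6Δ, MET10 (0.0794) and SAM1 (0.15) in rrp40-W195R and MET5 in RRP6 against the other controls (0.053). Library totals also changed the split into higher and lower calls, as given beside those counts; the share of called features that was higher also moved to 36.9% in rrp46-L127T (50.1% with TMM factors) and 46.9% in rrp46-Q86I (79.5%). Counts of calls in both directions together moved by over 1.5 times only in rrp40-S87A, rrp46-L127T, rrp46-Q86I and rrp45-I15P. All features called were 393 in rrp46-L127T (619 with DESeq2, 1063 in the joint fit), 39 in rrp46-Q86I (145 with DESeq2, 80 in the joint fit) and 2 in rrp45-I15P (52 with DESeq2, 5 with library totals, 9 with no filter, 0 in the joint fit). The list of 36 had 3 calls in rrp46-L127T (6 with DESeq2, 11 in the joint fit) and 0 in rrp46-Q86I (1 with DESeq2). Leaving out 1 library gave 469 to 1016 features in rrp40-S87A, 66 to 775 in rrp46-L127T, 11 to 73 in rrp46-Q86I and 1 to 31 in rrp45-I15P. For the list of 36 it gave 6 to 12 in rrp40-S87A and 0 to 4 in rrp46-L127T, and for the 10 genes 0 to 1 in rrp46-L127T. The causes were not tested. In the comparisons of 2 groups, deviations of libraries with the same replicate number correlated at r from -0.182 to 0.175, so the numbers were not taken as pairs. With the replicate number as a block, 121 of 125 results held, and MET3, MET7 and ADO1 in rrp46-L191H and MUP3 in rrp40-W195R were not called. The block gave 124 features in rrp46-Q86I, 68 in rrp45-I15P and 1 of the list of 36 in rrp45-I15P. MET17 is deleted in both groups of the RRP6 family, so no fold change of rrp6Δ over RRP6 can be given for it.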
